A study of Mus musculus with 72 samples.

Results

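Livers of 9 female mice given 20 mg/mL tertiary butyl alcohol (TBA) in drinking water for 28 d were compared with livers of 9 female mice given plain drinking water (0 mg/mL, the controls) for the same time. These 18 libraries, 1 per animal, were chosen by their labelled dose and duration out of 72 libraries in the series, and every one of the 30146 probes was considered. TBA is a small tertiary alcohol used as a solvent. Further groups of 9 mice received 10 or 40 mg/mL for 28 d, or one of the 4 doses for 14 d, and are used below to set the comparison in context. All animals were B6C3F1 hybrids aged 9 to 11 weeks, carried an identification chip under the skin, were assigned to groups by body weight and lived in single cages. Sections of formalin-fixed, paraffin-embedded liver were scraped from slides and measured by TempO-Seq, in which pairs of detector oligos are ligated on chosen transcripts and the ligated products are counted by sequencing. A probe is named by a gene symbol and a number, and the count table carries no genome coordinates. Where a gene has several probes, the most strongly counted one stands for it unless another is named. The series title asks whether TBA acts on the thyroid of female mice through an anti-thyroid route, so liver enzymes and carriers that handle thyroid hormone are described beside the largest differences.

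The liver answers many foreign compounds through the constitutive androstane receptor (CAR) and the pregnane X receptor (PXR), nuclear receptors that switch on cytochrome P450 genes such as Cyp2b10 and Cyp2c29, transferases and export pumps. In rodents some of these transferases also conjugate thyroid hormone, which is then lost in bile. A separate programme is set by growth hormone: its pulsed release in males maintains genes such as the major urinary proteins at high levels, and its steadier release in females keeps those genes low and others high.

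In the dosed livers the CAR target Cyp2b10 was 13.8-fold higher and the related P450 genes Cyp2c29 and Cyp2a22 were 3.34-fold and 2.91-fold higher. At the other end, Gm10681, a protein-coding gene on chromosome 3 that RefSeq also lists as Hsd3b4, was 9.63-fold lower. The organic anion carrier Slco1a1 was 5.27-fold lower and the major urinary protein Mup20 2.61-fold lower, and both are normally more abundant in males. These 6 genes passed an edgeR quasi-likelihood test at a Benjamini-Hochberg adjusted p under 0.05 over all tested probes, at adjusted p = 0.0497 each (n = 9 against 9). Of 17050 tested probes, 27 passed (0.158%), standing for 26 symbols, with 11 higher (0.0645%) and 16 lower (0.0938%). Their adjusted p-values lay between 0.0497 and 0.0499, and a further 145 probes lay between 0.05 and 0.1, so the calls sit just inside the threshold. At an unadjusted p under 0.05 there were 2583 probes (15.1%), 1179 higher (6.91%) and 1404 lower (8.23%). In whole-liver sections, fewer cells of a type and less RNA per cell cannot be told apart.

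**Figure D1:**
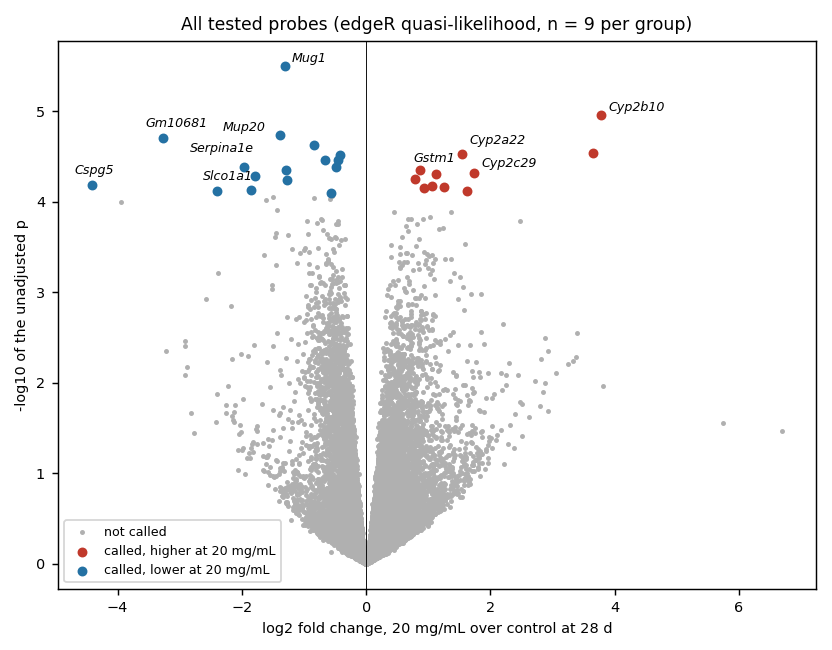
Each point is 1 of the 17050 tested probes, with the log2 fold change of 20 mg/mL over control at 28 d on the x axis and -log10 of the unadjusted edgeR p on the y axis (n = 9 per group). The 11 higher calls are red and the 16 lower calls blue, and the 2 Cyp2b10 probes stand farthest to the right among the calls.

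The number of calls turned on single libraries. Without control replicate 3 it was 760 (4.47%), of which 336 were higher and 424 lower, and the 27 were all among them. It was 348 without dosed replicate 7, 35 without dosed replicate 4, 8 without dosed replicate 9 and 1 without dosed replicate 5. Leaving out any one of dosed replicates 1, 2, 3, 6 and 8 or of the other 8 controls gave 0 calls in edgeR, with 2006 to 2663 probes at an unadjusted p under 0.05. DESeq2 called 287 probes with every library in place and limma-voom 515. Leaving aside the 3 calls averaging under 5 CPM, the called probes had 695 values under these and other alternatives. The sign was that of the main value every time, and 181 of these values passed. The probes were chosen by the main fit and the alternatives reuse the same animals, so an unchanged sign is no independent test.

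Library composition differed between the groups. Totals were 8.72 to 11.8 M counts at 20 mg/mL and 7.77 to 10.5 M counts in controls, with means of 10.5 ± 1.15 and 9.32 ± 0.932 M counts (SD, n = 9 each; two-sided exact permutation p = 0.0266). The 20 most abundant probes, among them Apoe, Apoa1, Alb, Mup7 and Cyp2e1, took 15.5% ± 3.00 of counts at 20 mg/mL and 21.0% ± 3.09 in controls (SD, n = 9 each; exact permutation p = 0.00259, adjusted over 3 such tests 0.00777). The scaling factor of the trimmed mean of M values (TMM), which corrects for such skew, was 1.14 ± 0.182 at 20 mg/mL and 0.927 ± 0.176 in controls (exact permutation p = 0.0256, adjusted p = 0.0266). Dosed replicates 9 and 1 had the highest factors of their group (1.48 and 1.30) and dosed replicate 7 the lowest (0.907). Control replicate 3 stood apart from the other controls, at a factor of 1.37 against at most 0.957 and a share of 13.4% against at least 20.1%. Without it and dosed replicates 1 and 9, the mean factors were 1.06 at 20 mg/mL and 0.871 in controls (exact permutation p = 0.0014, adjusted p = 0.0021). The shares were then 16.6% and 21.9% (exact permutation p = 0.000466, adjusted p = 0.0014, n = 7 and 8), and mean totals 11.0 and 9.36 M counts (exact permutation p = 0.00901). Control replicate 3 was the lowest control at 12 of the 16 probes called lower, and dosed replicate 7 was the highest dosed animal at 9 of them. It was also the lowest control at 5 of the 11 probes called higher, among them both Cyp2b10 probes and Cyp2c29. A fit that includes the log2 scaling factor of each library (the covariate) called 12 probes, all higher, of which 4 were among the 27: both Cyp2b10 probes, Cyp2c29 and Cyp2a22. The 16 probes called lower and the other 7 called higher did not pass in that fit. The factor is computed from these same counts, abundant probes included, and it differed between the groups. The covariate can therefore take up part of a dose difference, and a smaller or turned value with it does not tell composition from dose. Values from it, or without control replicate 3, are given below for the main genes and lists. The part that composition plays in the results was not tested beyond these fits.

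**Figure D2:**
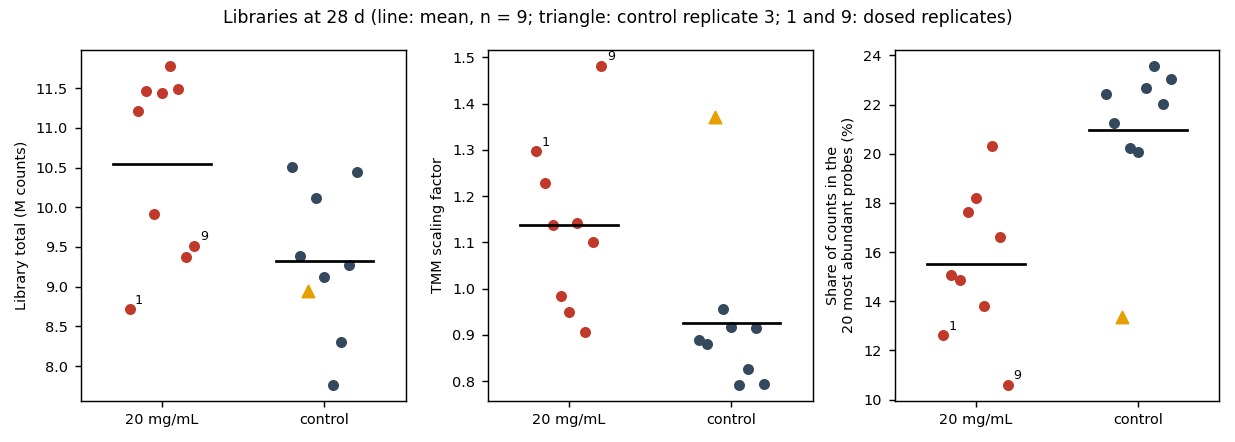
Library total in M counts, TMM scaling factor and share of counts in the 20 most abundant probes for each 28 d library, 20 mg/mL on the left and control on the right, with black lines at the group means (n = 9 each). Control replicate 3 (triangle) has a factor of 1.37 and a share of 13.4%, inside the range of the dosed libraries.

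Of 30 tested targets of CAR and PXR, 2 rose, 0 fell and 28 did not pass. Of the 11784 tested genes, each read by 1 probe, 0.195% passed. At an unadjusted p under 0.05, 5 targets were higher and 1 lower, against 6.84% and 9.13% of all tested genes. These 2 shares apply to each list below. DESeq2 and limma-voom each called 4 targets higher and 0 lower, and edgeR without control replicate 3 called 3 higher. Cyp2b10, the P450 commonly used as a readout of CAR, lay between 103 and 2095 CPM (the probe count scaled to a common library size with the TMM factors) in dosed animals with a median of 700.4, and between 23.7 and 95.2 CPM with a median of 51.5 in controls. The ranges did not overlap: dosed replicate 9, the lowest of its group, was just above the highest control, and dosed replicate 6 was the highest of all. The log2 fold change was 3.78 (SE 0.79), with 3.68 without control replicate 3 and 4.03 with the covariate. A second probe, Cyp2b10_71476, had 13.4 to 503 CPM in dosed animals (median 144) and 3.59 to 26.8 CPM in controls (median 11.5), and its log2 fold change was 3.66 (SE 0.81). There 8 of 9 dosed animals were above every control, and dosed replicate 9 was again the exception.

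Cyp2c29, which hydroxylates drugs and fatty acids, was already abundant in control liver. Dosed animals had 1319 to 7252 CPM (median 4217) and controls 404 to 1910 CPM (median 1349.5). Control replicate 3 held the 404 CPM and the other controls at least 1079 CPM. In 8 of 9 dosed animals the level was above that of every control, and the log2 fold change was 1.74 (SE 0.40) and 1.62 without control replicate 3. Its other probes had 1.47 (adjusted p = 0.102) and 0.97 (adjusted p = 0.34), while with the covariate all 3 probes passed, at 2.49, 2.46 and 2.27. Cyp2c55, another P450 of the subfamily, lay between 5.68 and 117 CPM in dosed animals (median 56.4) and between 0 and 19.0 CPM in controls (median 11.7). Again 8 of 9 dosed animals were above every control, but the log2 fold change of 2.48 (SE 0.62) did not pass (adjusted p = 0.0613; 0.0242 without control replicate 3).

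The remaining targets lay closer to 0. Cyp2c37 had a log2 fold change of 0.82 (adjusted p = 0.154, 7 of 9 dosed animals above every control), the haem synthesis enzyme Alas1 1.06 (0.339) and the P450 reductase Por 0.32 (0.687). Cyp3a11, the main PXR target P450 in mouse liver, had 240.3 to 1011 CPM in dosed animals (median 668) and 193 to 1156 CPM in controls (median 806), ranges that overlap almost throughout, with a log2 fold change of -0.25 (adjusted p = 0.728) that was 0.56 with the covariate. Another probe, Cyp3a11_30591, had 0.19 (adjusted p = 0.691), with 4 of 9 dosed animals above every control. Nr1i3, which encodes CAR itself, had -0.27 (adjusted p = 0.444). The median over the list was 0.12, against 0.0167 over all tested genes, and 0.50 with the covariate.

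**Figure D3:**
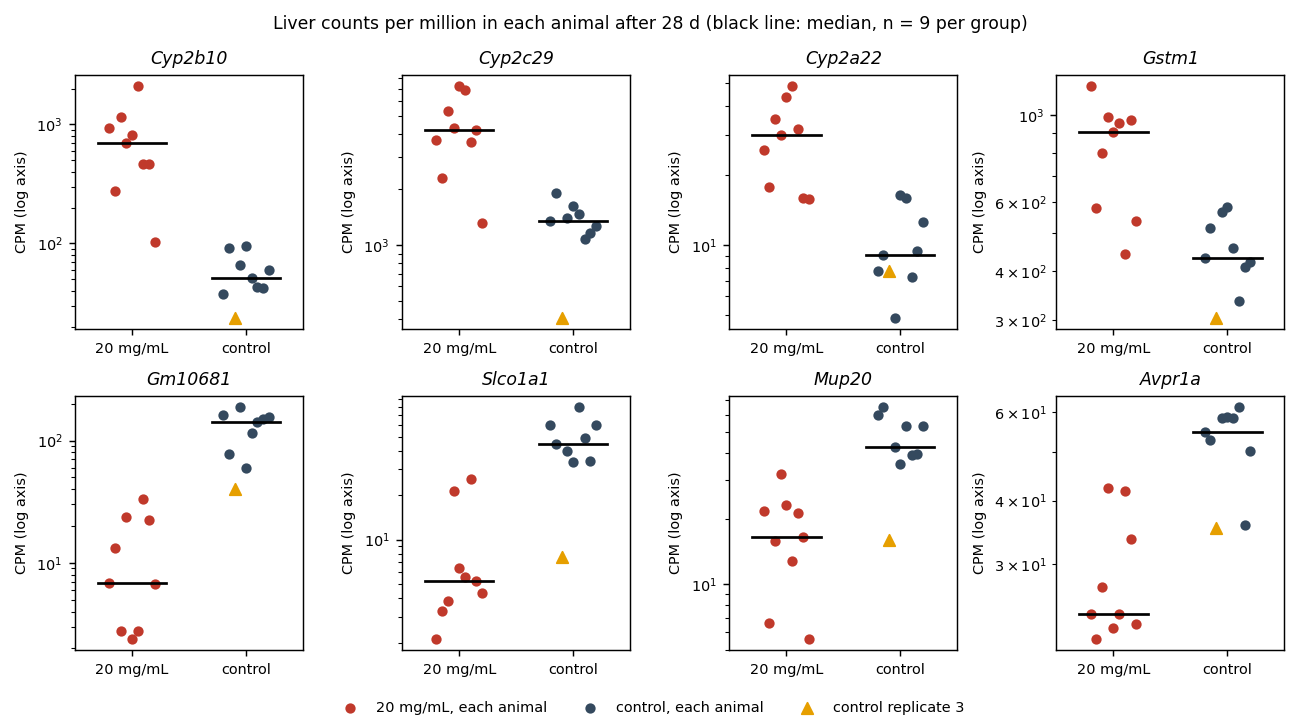
CPM on a log axis in each animal for 4 genes called higher and 4 called lower, 20 mg/mL on the left and control on the right, with black lines at the medians (n = 9 per group). For Cyp2b10 and Gm10681 the groups do not overlap, and control replicate 3 (triangle) is the lowest control for Slco1a1, Mup20 and Gm10681.

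The promoters of Cyp2b10 and Cyp2c29, the CAR targets that rose, and of Slco1a1, the carrier that fell, are shown because these genes were called and belong to the drug response and hormone transport lists. Each is 250 bases before to 50 after the start in RefSeq (GRCm38.p6), with AGGTCA on either strand, a motif many nuclear receptors read, in capitals. Cyp2b10 lies at chr7:25897408-25897707 on the plus strand, Cyp2c29 at chr19:39286835-39287134 on the plus strand and Slco1a1 at chr6:141946913-141947212 on the minus strand.
Cyp2b10: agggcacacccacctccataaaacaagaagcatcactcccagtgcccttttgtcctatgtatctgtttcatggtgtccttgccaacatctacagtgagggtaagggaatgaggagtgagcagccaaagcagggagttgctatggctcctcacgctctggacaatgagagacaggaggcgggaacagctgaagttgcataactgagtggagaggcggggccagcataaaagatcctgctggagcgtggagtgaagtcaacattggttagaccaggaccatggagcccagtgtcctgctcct
Cyp2c29: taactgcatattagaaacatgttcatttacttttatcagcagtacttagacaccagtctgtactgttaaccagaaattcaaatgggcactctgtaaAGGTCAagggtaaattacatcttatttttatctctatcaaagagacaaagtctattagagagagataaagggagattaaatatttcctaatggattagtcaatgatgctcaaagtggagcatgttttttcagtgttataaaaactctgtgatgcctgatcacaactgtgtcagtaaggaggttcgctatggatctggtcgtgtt
Slco1a1: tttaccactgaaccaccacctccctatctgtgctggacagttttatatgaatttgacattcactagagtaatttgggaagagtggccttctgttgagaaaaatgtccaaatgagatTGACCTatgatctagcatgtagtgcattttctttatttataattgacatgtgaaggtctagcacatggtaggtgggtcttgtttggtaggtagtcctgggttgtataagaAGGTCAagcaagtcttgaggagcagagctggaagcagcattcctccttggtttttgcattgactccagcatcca
The windows hold 0, 1 and 2 AGGTCA matches in that order, and none of the 3 holds TTCNNNGAA, the element read by the growth hormone signal carrier STAT5. A gene can have several such windows and is counted if any of them holds the motif. Among all 27025 genes with a window, 18.1% hold AGGTCA and 9.55% hold TTCNNNGAA, and among the 9234 tested ones 15.2% and 8.31% do. Among the 20 called genes with a window, 3 and 1 do (15% and 5%). These matches describe letters in short windows and say nothing on binding.

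Cyp2a22, a P450 more abundant in female than male mouse liver, had 15.8 to 48.7 CPM in dosed animals (median 30.0) and 4.86 to 16.5 CPM in controls (median 9.09). In 7 of 9 dosed animals it was above every control, the log2 fold change was 1.54 (SE 0.34), and it also passed with the covariate (1.93, adjusted p = 0.00127). It was the one call among 27 tested female-biased genes, of which 0 fell. The list median was 0.07, and the female-biased sulfotransferase Sult2a1 is described with the hormone-conjugating enzymes.

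Gstm1, a glutathione transferase that detoxifies electrophiles, had 441 to 1186 CPM in dosed animals (median 907) and 304 to 584 CPM in controls (median 432). Above every control were 6 of 9 dosed animals, and the gene was 1.83-fold higher (log2 fold change 0.87, SE 0.20). With the covariate the value was 0.80 (adjusted p = 0.272). It was the one call among 21 tested glutathione transferases, of which 5 were higher and 3 lower at an unadjusted p under 0.05, against 6.84% and 9.13% of all tested genes. It was also the one call among 28 tested targets of the antioxidant regulator NRF2. DESeq2 called 3 transferases higher and 2 lower, and 3 NRF2 targets higher and 0 lower. Within the transferases, Gstm4 had 0.65 (adjusted p = 0.122) and Gstk1 -0.75 (adjusted p = 0.0899), and the list median was 0.27. Near-identical members of the GST, Ugt1a, Cyp2b, Serpina1 and major urinary protein families can share detector oligo targets, so values of single members in these families are uncertain.

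The other genes called higher serve varied functions. Plcb2, a phospholipase C, had 3.80 to 12.3 CPM in dosed animals (median 7.59) and 1.63 to 4.96 CPM in controls (median 3.27), and 8 of 9 dosed animals were above every control (log2 fold change 1.25, SE 0.30). Tle3, a transcriptional co-repressor, had 1.13 (SE 0.26), with 5 of 9 dosed animals above every control, and 0.46 and 0.97 at its other probes, which did not pass. With the covariate the value was 0.78 (adjusted p = 0.498). The same number applied to Cgn, a tight junction protein, at 1.06 (SE 0.25), but dosed replicate 1 alone reached 43.2 CPM against at most 19.9 CPM in the rest of its group, and the value was 0.67 without dosed replicates 1 and 9 and 0.50 with the covariate (adjusted p = 0.809). Ifi27l2b, a member of an interferon-inducible gene family, had 1.63 (SE 0.39) with 6 of 9 dosed animals above every control. The pseudogene Gm6665 on chromosome 18 had 0.78 (SE 0.18), with 40.1 to 76.3 CPM in dosed animals and 25.6 to 49.6 CPM in controls.

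Among genes called lower, Gm10681 showed the widest gap. Dosed animals had 2.39 to 33.1 CPM (median 6.90) and controls 40.2 to 187 CPM (median 141). All 9 dosed animals lay below all 9 controls, and the log2 fold change was -3.27 (SE 0.71), -3.38 without control replicate 3 and -2.74 with the covariate (adjusted p = 0.123). Over all tested probes, 2 had every dosed animal below every control (0.0117%), Gm10681 and Elovl3, and 2 had every dosed animal above every control (0.0117%), Cyp2b10 and the histone gene H3f3b. H3f3b averaged 67.8 ± 5.54 CPM at 20 mg/mL and 54.5 ± 3.80 CPM in controls (SD, n = 9 each), a log2 fold change of 0.31 that did not pass (adjusted p = 0.272).

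Slco1a1 encodes an uptake carrier of the hepatocyte membrane that takes up bile acids, steroid conjugates and thyroid hormones, and it is more abundant in male than in female liver. It had 2.12 to 26.0 CPM in dosed animals (median 5.23) and 7.59 to 79.4 CPM in controls (median 45.0). Control replicate 3 held the value of 7.59 and the other controls at least 33.7 CPM, so 7 of 9 dosed animals were below every control with that library and 9 of 9 without it. The log2 fold change was -2.40 (SE 0.57), -2.54 without control replicate 3 (adjusted p = 0.0109) and -1.52 with the covariate (adjusted p = 0.458).

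Of 21 tested male-biased liver genes, 2 fell (Slco1a1 and Mup20), 0 rose and 19 did not pass. At an unadjusted p under 0.05, 12 were lower and 0 higher, against 9.13% and 6.84% of all tested genes, and without control replicate 3, 9 fell. The median was -0.70 and was -0.45 with the covariate. Hsd3b5, a male-specific hydroxysteroid dehydrogenase, was nearly absent in dosed animals, at 0 to 0.968 CPM (median 0) against 0.163 to 4.50 CPM in controls (median 2.77), and did not pass (log2 fold change -3.94, SE 0.96, adjusted p = 0.0517). Elovl3, a fatty acid elongase, had 7.03 to 30.5 CPM in dosed animals (median 20.2) and 32.6 to 93.9 CPM in controls (median 44.1). Its groups did not overlap at all, yet its log2 fold change of -1.52 (SE 0.43) did not pass (adjusted p = 0.0899; 0.0311 without control replicate 3). Cyp7b1, the oxysterol hydroxylase, had -1.19 (SE 0.31, adjusted p = 0.074), with 8 of 9 dosed animals below every control.

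The major urinary proteins are small pheromone carriers secreted by the liver in very large amounts. Of 12 tested members 1 fell, 0 rose and 11 did not pass. At an unadjusted p under 0.05, 10 were lower, against 9.13% of all tested genes. DESeq2 called 8 lower, limma-voom 7 and edgeR without control replicate 3 called 6, and the median of -0.98 was -0.59 with the covariate. Mup20 had 5.61 to 32.1 CPM in dosed animals (median 16.6) and 16.0 to 65.2 CPM in controls (median 43.0). Control replicate 3 was again the lowest control, and the number of dosed animals below every control was 4 with it and 9 without it. The log2 fold change was -1.38 (SE 0.30), and -0.80 with the covariate (adjusted p = 0.397). The Mup3 probe Mup3_80493 also fell, at 515 to 1443 CPM in dosed animals (median 661) and 538 to 2355 CPM in controls (median 2054; log2 fold change -1.28, SE 0.30). With the covariate its value was -0.60 (adjusted p = 0.763), and the more abundant Mup3 probe had -0.96 (adjusted p = 0.0613). Mup7, the most abundant member described here, had 1122 to 5001 CPM in dosed animals (median 2317) and 2345 to 9626 CPM in controls (median 7996), with a log2 fold change of -1.43 that did not pass (adjusted p = 0.0613; 0.0122 without control replicate 3) and was -0.64 with the covariate.

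No gene of growth hormone signalling passed among 15 tested in edgeR (median -0.19), and DESeq2 and limma-voom each called 1 of them lower. At an unadjusted p under 0.05, 2 were lower and 0 higher, against 9.13% and 6.84% of all tested genes. Igf1, the growth factor that growth hormone induces in liver, had 22.9 to 49.3 CPM in dosed animals (median 33.4) and 36.6 to 66.0 CPM in controls (median 51.3). In 5 of 9 dosed animals it was below every control, and the log2 fold change of -0.56 (SE 0.13) lay just outside the threshold (adjusted p = 0.0506). The growth hormone receptor gene Ghr had -0.41 (adjusted p = 0.277).

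Other secreted or membrane proteins fell as well. Serpina1e, an alpha-1-antitrypsin gene, fell at the probe Serpina1e_62853, with 23.6 to 326 CPM in dosed animals (median 166) and 190.2 to 863 CPM in controls (median 633; log2 fold change -1.96, SE 0.44), and -1.30 with the covariate (adjusted p = 0.326). Its more abundant probe, which stands for the gene in the male-biased list, had -0.50 (adjusted p = 0.22). Mug1, a murinoglobulin that traps proteases in plasma, had 422 to 1544 CPM in dosed animals (median 782) and 790.2 to 4045 CPM in controls (median 2147). This was the smallest unadjusted p of the comparison, with a log2 fold change of -1.31 (SE 0.26), and all 9 dosed animals were below every control once control replicate 3 was left out (5 of 9 with it). With the covariate the value was -0.69 (adjusted p = 0.112). Gm7298, a pseudogene next to the A2m gene of the same protease inhibitor family, had -1.28 (SE 0.30).

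Avpr1a, the vasopressin receptor of pericentral hepatocytes, had 21.3 to 42.5 CPM in dosed animals (median 23.8) and 35.3 to 61.3 CPM in controls (median 54.8). The log2 fold change was -0.85 (SE 0.19), and 7 of 9 dosed animals were below every control with or without control replicate 3. With the covariate the value was -0.56 (adjusted p = 0.378). Slc22a28, an organic anion carrier, had -1.79 (SE 0.41), at 0.645 to 8.21 CPM in dosed animals (median 2.03) and 3.51 to 16.8 CPM in controls (median 12.4). Acsm2, a medium-chain acyl-CoA synthetase, had -1.85 (SE 0.44), and 8 of 9 dosed animals were below every control, while its other probes had -1.41 and -1.75 and did not pass. The last calls were small in size. Bnip3l, a mitophagy receptor, was 1.35-fold lower (log2 fold change -0.43, SE 0.10), at 77.7 to 96.7 CPM in dosed animals and 92.3 to 124 CPM in controls, but its other probe had 0.08. The nuclear transport regulator Rangap1 (-0.56), the signal recognition particle subunit Srp14 (-0.45, with 0.04 at its other probe), the aspartyl-tRNA synthetase Dars (-0.49, with -0.03 at its other probe) and St7 (-0.66, with -0.43 and -0.23 at its other probes) made up the rest, beside Cspg5, which was at most 1.79 CPM in every animal and is given no fold.

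Enzymes that conjugate thyroid hormone did not pass. Of 16 tested UDP-glucuronosyltransferases 0 passed in edgeR, and 3 were called lower without control replicate 3. At an unadjusted p under 0.05, 4 were lower and 0 higher, against 9.13% and 6.84% of all tested genes. DESeq2 and limma-voom each called 3 lower. The list median of -0.27 was 0.19 with the scaling factor as covariate, so its sign turned when that term was added. Ugt1a1, which conjugates bilirubin and thyroxine, had 779 to 3766 CPM in dosed animals (median 1808) and 965 to 3829.6 CPM in controls (median 3006), with a log2 fold change of -0.35 (adjusted p = 0.52) that was 0.30 with the covariate. Ugt2b1 had 20.5 to 74.7 CPM in dosed animals (median 47.8) and 30.0 to 120.5 CPM in controls (median 91.9). Its log2 fold change of -0.92 (SE 0.25) did not pass (adjusted p = 0.0759; 0.0138 without control replicate 3; -0.31 with the covariate). Ugt2a3 had -0.72 (adjusted p = 0.0613), Ugt1a9 -0.85 (0.509, and 0.74 with the covariate), Ugt1a6a 0.46 (0.611), Ugt2b34 -0.22 (0.619, and 0.32 with the covariate) and Ugt2b35 0.04 (0.929).

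Sulfotransferases add sulfate to hormones and drugs. Of 13 tested, 0 passed in edgeR and 0 in DESeq2, 1 was lower in limma-voom, and the median was 0.25. At an unadjusted p under 0.05, 4 were higher and 1 lower, against 6.84% and 9.13% of all tested genes. Sult2a1, a female-biased hydroxysteroid sulfotransferase, spanned 55.6 to 457 CPM in dosed animals (median 145) and 0.517 to 227 CPM in controls (median 33.9). Control replicate 5 held the 227 CPM and the next control 51.2 CPM. The log2 fold change was 1.82 (SE 0.66, adjusted p = 0.165), with 1.76 for Sult2a2 (adjusted p = 0.154). Sult1a1 had 0.28 (adjusted p = 0.424) and Sult1d1 0.18 (adjusted p = 0.844). Sult1e1, the oestrogen sulfotransferase, was under 1 CPM in every animal.

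Among 17 tested genes of thyroid hormone transport and deiodination, Slco1a1 fell, 0 rose and 16 did not pass. At an unadjusted p under 0.05, 3 were higher and 5 lower, against 6.84% and 9.13% of all tested genes. DESeq2 and limma-voom each called 1 higher and 3 lower, and edgeR called 4 lower without control replicate 3. The median of -0.16 was 0.15 with the covariate. Dio1, the deiodinase that makes the active hormone in liver, had 80.4 to 198 CPM in dosed animals (median 92.9) and 94.7 to 266 CPM in controls (median 252). In 5 of 9 dosed animals it was below every control, and the log2 fold change of -0.85 (SE 0.27) did not pass (adjusted p = 0.122; 0.0339 without control replicate 3; -0.25 with the covariate), nor did its other probes, at -0.56, -0.49 and -0.09. Serpina7 encodes thyroxine-binding globulin, a plasma carrier of the hormone. It had 7.63 to 247 CPM in dosed animals (median 117) and 14.2 to 64.2 CPM in controls (median 21.2). Dosed replicate 2, at 7.63 CPM, was below every control while the other 8 dosed animals were above every control, and the log2 fold change of 2.21 (SE 0.69) did not pass (adjusted p = 0.122). A second Serpina7 probe had 2.29 (adjusted p = 0.154). The carriers Ttr and Alb had -0.25 (adjusted p = 0.571, 0.22 with the covariate) and -0.33 (0.481, 0.15 with the covariate). Of 24 tested genes known to respond to thyroid hormone 0 passed in edgeR and 3 were lower in DESeq2. At an unadjusted p under 0.05, 1 was higher and 3 lower, against 6.84% and 9.13% of all tested genes. Thrsp, the lipogenic regulator named for the thyroid hormone response, had 0.52 (adjusted p = 0.676).

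**Figure D4:**
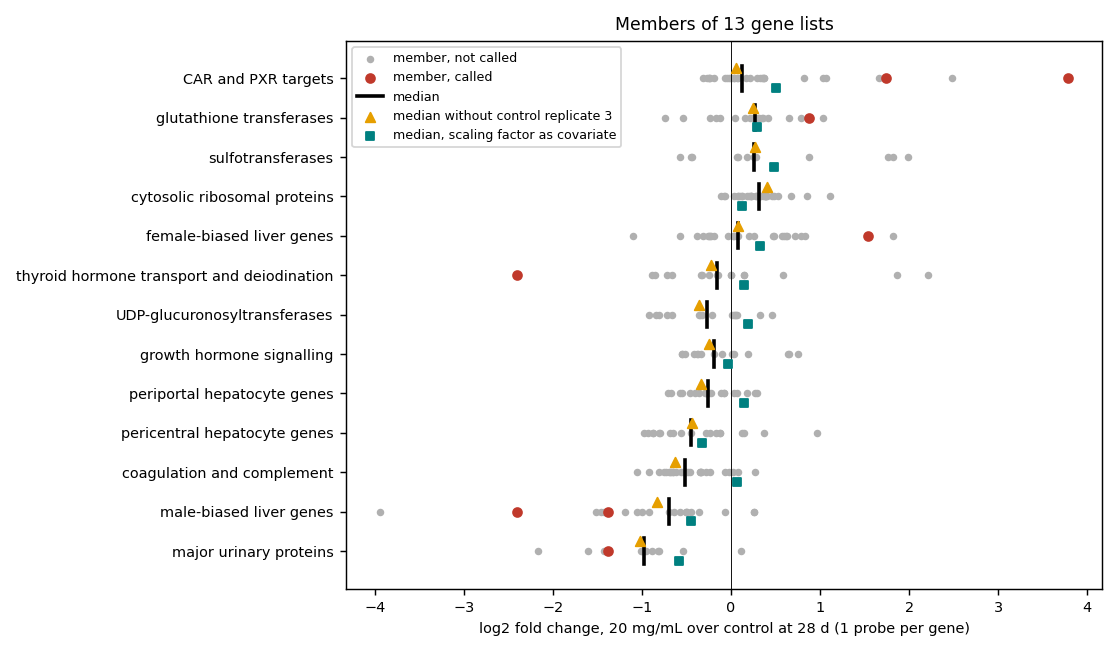
Log2 fold change of 20 mg/mL over control at 28 d for each tested member of 13 gene lists, 1 probe per gene, with called members in red, and the list median as a black bar. Triangles give the median without control replicate 3 and squares that with the scaling factor as covariate; for glucuronosyltransferases, coagulation and complement, periportal genes and thyroid hormone transport the square lies on the other side of 0.

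The 2 lists of zonation genes of the lobule, which do not include Avpr1a, had 0 calls in edgeR, while DESeq2 called 4 pericentral genes and 1 periportal gene lower. Of 19 tested pericentral genes 9 were lower and 0 higher at an unadjusted p under 0.05 (median -0.45, -0.32 with the covariate). Of 20 periportal genes 3 were lower and 0 higher (median -0.26, 0.14 with the covariate). Among all tested genes 9.13% were lower and 6.84% higher at that p. Cyp2e1, the pericentral P450 that oxidises small alcohols and solvents, had 1574 to 6158 CPM in dosed animals (median 3860) and 2949 to 10253 CPM in controls (median 7376). Control replicate 3 was the lowest control here as well, and the log2 fold change of -0.87 (SE 0.24) did not pass (adjusted p = 0.0839; 0.0154 without it; -0.22 with the covariate). Glul, the glutamine synthetase of the last pericentral cell layer, had -0.69 (SE 0.18, adjusted p = 0.0654) and -0.13 at its other probe. The periportal P450 Cyp2f2 had -0.57 (adjusted p = 0.212) and 0.09 with the covariate.

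Beyond Mug1 and Serpina1e, 2 lists of proteins that hepatocytes secrete into plasma held 0 calls in edgeR. Of 30 tested coagulation and complement genes 17 were lower and 0 higher at an unadjusted p under 0.05. The shares of all tested genes were 9.13% lower and 6.84% higher. In this list 5 were called lower by DESeq2 and 11 fell without control replicate 3, but the median of -0.52 was 0.07 with the covariate. The terminal complement genes C8a and C8b, which are also on the male-biased list, had -0.93 and -1.06 (adjusted p = 0.074 each), and -0.45 and -0.20 with the covariate. C8b had 48.3 to 197 CPM in dosed animals (median 142) and 63.7 to 376 CPM in controls (median 285), and control replicate 3 held the lowest control value. Among 22 secreted carriers and apolipoproteins 7 were lower and 1 higher at an unadjusted p under 0.05, with 4 lower and 1 higher in DESeq2 (median -0.32, 0.11 with the covariate). Apoe, the most abundant probe of these livers, had 11226 to 41804 CPM in dosed animals (median 23806) and 13618 to 60396 CPM in controls (median 48202), with a log2 fold change of -0.88 (adjusted p = 0.0899) that was -0.10 with the covariate.

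Genes of cytosolic ribosomal proteins leaned the other way. Of 33 tested, 21 were higher and 0 lower at an unadjusted p under 0.05, against 6.84% and 9.13% of all tested genes. None passed in edgeR, 10 were called higher by DESeq2 and 16 rose without control replicate 3, with a median of 0.31 (0.12 with the covariate). Rpl7 had 129 to 241 CPM in dosed animals (median 165) and 109.8 to 172 CPM in controls (median 137), where control replicate 3 held the highest value, and its log2 fold change was 0.40 (SE 0.10, adjusted p = 0.0736).

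Of 32 tested acute phase genes 0 passed in edgeR, and DESeq2 called 2 higher and 1 lower. At an unadjusted p under 0.05, 7 were higher and 2 lower, against 6.84% and 9.13% of all tested genes. Saa2, a serum amyloid gene that rises steeply in inflammation, had 16.9 to 3169 CPM in dosed animals (median 56.2) and 33.7 to 114 CPM in controls (median 63.3). Dosed replicates 5 and 6, at 3169 and 2071 CPM, and replicate 3, at 141.5 CPM, were above every control, and 4 dosed animals were below every control. The log2 fold change of 3.24 (SE 1.14) did not pass (adjusted p = 0.155). Hamp, the iron hormone hepcidin, had 142 to 380 CPM in dosed animals (median 209) and 90.4 to 175 CPM in controls (median 105), and 7 of 9 dosed animals were above every control (log2 fold change 0.90, adjusted p = 0.143). Of 36 tested interferon response and antigen presentation genes 0 passed in edgeR, with 9 lower and 0 higher at an unadjusted p under 0.05 and 1 lower in DESeq2, and the antiviral gene Rsad2 had -1.47 (SE 0.38, adjusted p = 0.0669).

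The lists of fatty acid and cell cycle genes held 0 calls in edgeR. Of 22 tested genes of fatty acid and triglyceride synthesis 3 were higher and 5 lower at an unadjusted p under 0.05 (median 0.25), and of 37 of fatty acid oxidation and PPARA targets 1 was higher and 7 lower (median -0.21), with 0 and 2 calls in DESeq2. Angptl4, a lipase inhibitor induced by fasting, had -1.65 (SE 0.44, adjusted p = 0.074), -1.78 without control replicate 3 and -0.55 with the covariate. Ppara, the receptor of the fasting response, had -0.63 (adjusted p = 0.122), with 7 of 9 dosed animals below every control. Of 31 tested cell cycle genes 1 was higher and 0 lower at an unadjusted p under 0.05, and DESeq2 called 0. For comparison, 6.84% of all tested genes were higher and 9.13% lower at that p.

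The label of the tissue was checked against marker genes. Of 10 hepatocyte markers 9 were tested, and their summed level ran from 12680 to 44607 CPM at 20 mg/mL and from 14625 to 64176 CPM in controls, with control replicate 3 at the low end. The medians of this sum were 28295 CPM at 20 mg/mL and 50109 CPM in controls. Much of the sum was Apoa1, at 5391 to 26810 CPM in dosed animals and 5753 to 42180 CPM in controls. Of the 9 markers, 4 had positive and 5 negative log2 fold changes, with a median of -0.026 (0.16 with the covariate). Markers of other cells were low and the ranges of their sums overlapped between the groups: Kupffer cells 216 to 464 CPM at 20 mg/mL and 206 to 254 CPM in controls (11 of 12 tested), sinusoidal endothelial cells 411 to 884 and 514 to 689 CPM (11 of 12), stellate cells 368 to 652 and 384 to 522 CPM (14 of 14), cholangiocytes 19.6 to 44.7 and 24.1 to 34.5 CPM (5 of 8). The Kupffer cell median was 275 CPM at 20 mg/mL, above the highest control, and 236 CPM in controls. In the same order the medians were 519 and 608 CPM for sinusoidal endothelial cells, 411 and 463 CPM for stellate cells and 28.5 and 28.3 CPM for cholangiocytes. No marker of these or of 6 further cell types passed in edgeR. At an unadjusted p under 0.05, 2 hepatocyte markers were higher and 2 lower, and 1 Kupffer cell, 1 stellate cell and 1 smooth muscle or portal fibroblast marker were higher, as was 1 sinusoidal endothelial marker, with another lower. Smooth muscle and portal fibroblast markers had the highest median of the marker lists, at 0.70 (0.30 with the covariate) with positive values for 6 of 6 tested members, and summed to 11.4 to 69.0 CPM at 20 mg/mL (median 29.6) and 15.2 to 29.9 CPM in controls (median 19.8). DESeq2 called 1 hepatocyte marker higher and 2 lower, and 1 Kupffer cell marker higher. Their part in the results above was not tested.

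The 14 d groups are other animals and allow the same contrast of 20 mg/mL with control, which was added after the 28 d results were seen. At 14 d, 6 probes passed (0.0352%), 5 higher and 1 lower, and 1032 had an unadjusted p under 0.05 (6.05%). Of the 27 probes called at 28 d, 26 had the same sign at 14 d (10 of 11 higher, 16 of 16 lower), against 64.2% of all tested probes, and 21 also had an unadjusted p under 0.05 there, against 4.99% of all. Log2 fold changes at 14 d were 3.45 for Cyp2b10, 1.83 for Cyp2c29, 2.13 for Cyp2a22 (adjusted p = 0.00106), -2.42 for Gm10681, -1.25 for Slco1a1, -0.77 for Mup20 and -2.31 for Serpina1e_62853 (adjusted p = 0.0257). Cyp2c55 (3.12, adjusted p = 0.0289) and Saa2 (6.05, adjusted p = 0.0499), which did not pass at 28 d, passed at 14 d. Serpina7 had 2.67 there and did not pass (adjusted p = 0.206). Among the 27 probes Plcb2 was the exception in sign, at -0.08. A direct test of the difference between the 28 d and the 14 d effect gave 0 calls in edgeR (0%; 537 probes or 3.15% at an unadjusted p under 0.05), and 0 in DESeq2 and limma-voom. For Slco1a1 that difference was -1.14 (SE 0.77, adjusted p = 0.999) and for Gm10681 -0.85 (SE 0.93, adjusted p = 0.999).

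Across the doses at 28 d the 20 mg/mL group held the extreme mean at most of the called probes. Group means of Cyp2b10 at 0, 10, 20 and 40 mg/mL were 56.5 ± 24.0, 315 ± 141, 778 ± 593 and 401 ± 437 CPM (SD, n = 9 each), and those of Slco1a1 were 45.4 ± 20.4, 25.0 ± 12.4, 8.67 ± 8.66 and 25.7 ± 13.0 CPM. Of the 16 probes called lower, 16 had their lowest mean at 20 mg/mL, and of the 11 called higher, 10 had their highest mean there, against 60.9% of all tested probes with either extreme at that dose. The calls were made at 20 mg/mL, which favours such an order. Set directly against 10 mg/mL, 20 mg/mL had 0 calls in edgeR (0%; 1459 probes or 8.56% at an unadjusted p under 0.05), 15 in DESeq2 and 0 in limma-voom, with a log2 fold change of 1.30 for Cyp2b10 (SE 0.72, adjusted p = 0.626) and -2.08 for Gm10681 (SE 0.68, adjusted p = 0.363).

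**Figure D5:**
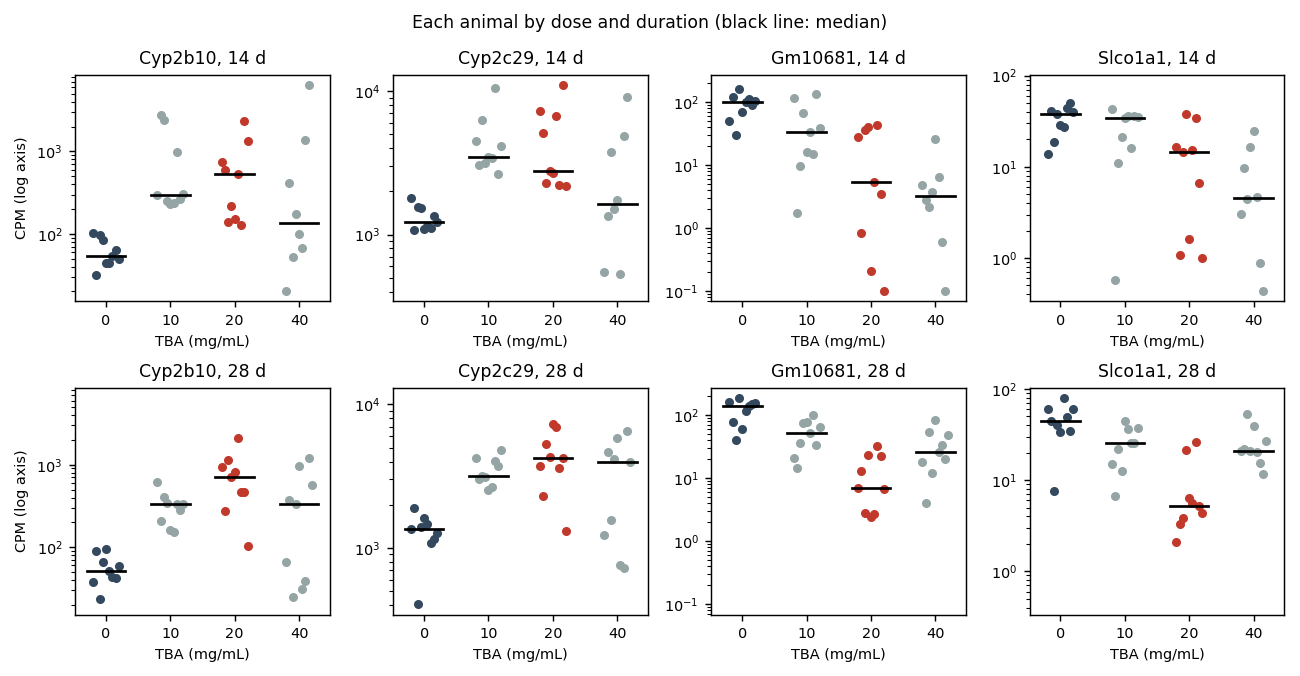
CPM on a log axis in each animal by dose (mg/mL), with 14 d in the top row and 28 d in the bottom row, with black lines at the medians; 20 mg/mL is red and control dark blue, n = 9 per group and 8 at 40 mg/mL for 14 d, and 2 animals with 0 counts of Gm10681 are drawn at 0.1 CPM. At 28 d the 20 mg/mL medians are the highest for Cyp2b10 and Cyp2c29 and the lowest for Gm10681 and Slco1a1.

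At 40 mg/mL, 1 probe passed against 20 mg/mL (0.00587%; 1888 probes or 11.1% at an unadjusted p under 0.05). It was Brwd3_31759, of a bromodomain protein gene, with 1.501 ± 0.842 CPM at 40 mg/mL and 5.90 ± 3.78 CPM at 20 mg/mL (SD, n = 9 each; log2 fold change -1.96, SE 0.35, adjusted p = 0.00693). The count was 0 without dosed replicate 1 of the 20 mg/mL group, 2 without its replicate 4 and 25 without its replicate 7. The same probe averaged 2.44 ± 0.832 CPM in controls, and its log2 fold change at 20 mg/mL over control was 1.27 (SE 0.35, adjusted p = 0.0759), with 6 of 9 dosed animals above every control. The other Brwd3 probes had -0.17 and 0.23 against control, neither passing. Slco1a1 was 1.57 log2 units higher at 40 than at 20 mg/mL (SE 0.56, adjusted p = 0.245), and Serpina7 averaged 457 ± 456 CPM at 40 mg/mL and 128 ± 68.0 CPM at 20 mg/mL (log2 fold change 1.84, SE 0.68, adjusted p = 0.265). Set against the 28 d controls in edgeR, Serpina7 at 40 mg/mL passed (log2 fold change 4.04, SE 0.75, adjusted p = 0.0166). How many other probes passed in that contrast is not given here.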

How the data were processed

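Raw counts per TempO-Seq probe (30146 probes) were deposited by the authors as 1 table; per the submitters' processing notes bcl2fastq 2.20 and Bowtie were used, and neither the counting step nor the genome build is given in the sources used here. Libraries were grouped by labelled dose and days of exposure. No batch is labelled, and the replicate numbers used here only name animals. Libraries of the 18 animals were distinct (36 pairs per group, 0 identical pairs), and p-values measure the spread between animals.

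From 72 libraries, 1 under 100000 counts was left out. The other 71, in 8 groups, were fitted with edgeR 4.0.16 under R 4.3.3, using filterByExpr, TMM factors and the robust quasi-likelihood test with 1 mean per group, with Benjamini-Hochberg adjustment over the 17050 tested probes, which hold 99.9% of counts. CPM were computed here with TMM-scaled library sizes. DESeq2 1.42.0, limma-voom 3.58.1, other filters, a covariate and leaving out libraries were alternatives. The edgeR step was tested on simulated data. Library composition was compared by two-sided exact permutation tests, whose smallest possible p is 4.11e-05 for 9 against 9 animals.

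Named genes are the 15 largest changes each way among calls averaging 5 CPM or more, up to 4 called members of each list or the 2 with the smallest p where none passed, and 21 genes always named. For 1 of these 21 and 1 of the largest changes, no result is given here. Genes outside this rule (Cyp2c55, Cyp2c37, Alas1, H3f3b, the 3 calls under 5 CPM and a few others) were chosen after their values were seen. The members and lists were chosen with earlier results of these data known. Of 21400 symbols, 21069 matched the reference names.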

Additional observations from a re-analysis of the deposited data

Results flagged for a closer look

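In 126 sets of 9 values, 21 had a highest or lowest animal far from the nearest of its group by Dixon's test. That test flags about 5 percent of sets by chance where values follow a normal distribution. It was run on values without a log transform, so that rate may not hold here. Control replicate 3 accounts for 12 of the 21, which share that 1 library and are not independent. It was lowest for Mup3_80493 (538 CPM, next 1495), C8b (63.7 CPM, next 252), Cyp2e1 (2949 CPM, next 6661), Apoe (13620 CPM, next 41880), Ugt1a1 (964.9 CPM, next 2386), Ugt2b34 (158 CPM, next 325), Ttr (1662 CPM, next 3944), Alb (1915 CPM, next 5034) and the share of counts in the 20 most abundant probes (13.4%, next 20.1%). It was highest for Rpl7 (172 CPM, next 139), Por (58.8 CPM, next 40.2) and the scaling factor (1.37, next 0.957).

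Among other controls, replicate 5 was highest for Sult2a1 (227 CPM, next 51.2), replicate 6 for Serpina7 (64.2 CPM, next 37.0) and replicate 8 for Thrsp (11.1 CPM, next 5.98). At 20 mg/mL, replicate 6 was highest for Cyp2b10_71476 (503 CPM, next 250.5) and replicate 1 for Cgn (43.2 CPM, next 19.9) and Hamp (379.7 CPM, next 239). Replicate 7 was highest for Dars_70180 (153 CPM, next 121), and replicate 8 for Hsd3b5 (0.968 CPM, next 0.355) and Thrsp (11.5 CPM, next 7.90).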

How the results depend on the processing

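The number of probes called between 20 mg/mL and control at 28 d (27, 11 higher and 16 lower) changed with most settings. DESeq2 called 287 (125 higher, 162 lower), limma-voom with quality weights 515 (176 and 339), a filter at a mean of 5 CPM 101 (59 and 42), only the compared groups 52 (25 and 27), summed probes of a gene 63 (28 and 35), and the log2 scaling factor as covariate 12 (12 and 0). The count was 0, higher and lower alike, with DESeq2 size factors in edgeR (2653 probes at an unadjusted p under 0.05), with no filter (4651), with the library under 100000 counts kept (1329), without dosed replicates 1 and 9 (1510) and without these and control replicate 3 (2292). Leaving out 1 library at a time gave 0 to 760 calls (0 to 336 higher, 0 to 424 lower), and 13 of 18 such fits gave 0. Of the 27 probes, DESeq2 shared 18 and limma-voom 24. Over 112 named probes and 3227 values, 0 reversed past the threshold, 514 lost a call and 156 gained one. Against 10 mg/mL, DESeq2 called 15 probes. For 40 against 20 mg/mL the count of 1 became 35 in DESeq2, 0 in limma-voom, with the 5 CPM filter, with only the compared groups and with summed probes, 7 with the covariate, 2 without dosed replicates 1 and 9, with or without control replicate 3, and 0 to 25 leaving out 1 library. The cause was not tested. No paired analysis was made because the groups are different animals. Depth (7.77 to 11.8 M counts) leaves genes under 1 CPM with few counts.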
